A study of Schizosaccharomyces pombe with 6 samples.

Results

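The vacuole of fission yeast, Schizosaccharomyces pombe, is an acidic organelle that degrades and stores material. It is acidified by the V-ATPase, a proton pump whose V1 sector hydrolyses ATP and whose V0 sector carries protons across the membrane. Cargo reaches the vacuole through the sorting (vps) machinery, which buds, tethers and recycles vesicles at the Golgi and endosomes, while the secretion (sec) proteins move newly made proteins from the endoplasmic reticulum to the cell surface, and Rab GTPases (ypt) mark the membrane that each vesicle fuses with. Mating yeast cells use the secretory route to deliver pheromone processing enzymes, receptors and cell surface agglutinins.

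The 84 genes described here are all S. pombe genes on the array whose symbol is vps, vma, sec or ypt followed by a number, or vph1, out of the 2896 S. pombe genes that could be tested. They comprise 31 sorting genes, 13 proton pump genes, 33 secretion genes and 7 Rab genes, each with a single probe set. All 84 read above the background limit on all 6 arrays, that limit being the 95th percentile of the S. cerevisiae probe sets of the same array. The symbols are those of the platform annotation; the RefSeq table gives another one, muk1, for vps902. The name is not always the function: vps71 (also swc6) encodes a subunit of the Swr1 chromatin remodelling complex.

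Affymetrix arrays were hybridised with labelled RNA from mixtures of the h+ strain YHL6381 and the h- strain SPQ-01, whose genotypes beyond mating type are not stated in the labels. Both strains were grown at 30 °C in YEPD to an OD600 of 5.0, combined in equal amounts, and kept for another 90 min in YEPD (3 arrays) or YEPME (3 arrays), and the study asks what distinguishes the flocculating mixtures from the others. The sample labels and the design text give the codes YSD and YSM to opposite media, and the strain label of the YEPME samples says diploid. Groups follow the medium written for each sample, and all signs would turn if the design text were right. Of the P (h+) cell markers 4 of 4, and of the M (h-) cell markers 7 of 7, read above the background limit on all 6 arrays. The mean log2 value of the P markers was 8.78 to 8.90 in YEPD and 9.06 to 9.23 in YEPME, and was higher in YEPME in each pair. That of the M markers was 9.48, 7.87 and 7.83 in YEPD and 8.43, 8.06 and 8.07 in YEPME in replicates 1, 2 and 3. It was thus lower in YEPME in replicate 1, with a difference of -1.05 (6 of 7 markers lower). In replicates 2 and 3 it was higher by 0.19 and 0.24, with 2 and 0 of the 7 markers lower. The M marker mfm1 read 5.66 in YEPME replicate 1, close to the limit of 5.59 on that array.

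The 2 arrays of replicate 1 stood apart from the other 4. Their values carry up to 10 digits against 6, and over the 2896 genes they correlated with each other at 0.975, with replicates 2 and 3 at 0.884 to 0.920, while replicates 2 and 3 correlated among themselves at 0.994 to 0.999. The labels do not say what differed. Results are therefore given for each replicate pair (YEPME minus YEPD on the log2 scale), within replicates 2 and 3, and over all arrays with a term for replicate 1 in the fit.

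Few of the vacuolar and secretion genes passed a test between the media. With limma over all 6 arrays and a term for replicate 1, 0 of the 84 genes passed an adjusted p under 0.05, where 2.07% of all genes did. Of all genes 0.760% were higher and 1.31% lower. Before adjustment, 8 of the 84 (9.52%) had a p under 0.05, against 16.5% of all genes. The lowest adjusted p of the 84 was 0.164. The 95% intervals of their differences lay between -0.65 and 0.75 on the log2 scale. This fit takes 1 difference for all pairs. By the interaction test below, the difference departed in replicate 1 for 43 of the 84 genes (46.4% of all genes). Opposite differences can thus cancel in the fit and widen its intervals. In replicate 1 the median absolute difference of the 84 was 0.19, against 0.20 for all genes. When the replicate number was blocked on instead, limma passed 0 of the 84 and 0 of all 2896 genes, and 5 and 317 had an unadjusted p under 0.05. As these are whole-culture samples, fewer cells of a type and less RNA per cell cannot be told apart.

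Within replicates 2 and 3, 4 of the 84 genes rose in YEPME and 2 fell, which is 7.14% of the 84 against 15.6% of all genes (6.91% higher and 8.70% lower). Before adjustment, 24 (28.6%) had a p under 0.05, against 34.3% of all genes. Blocking on the replicate number gave 9 higher and 3 lower (11.3% and 12.7% of all genes), with all 6 of the first among them. The 6 were vps17, vps10, vma2 and vma6 upward and vps41 and sec59 downward, and the largest of their differences was a 1.15-fold change. Over all 84 genes the intervals within these replicates reached from -0.39 to 0.40, or 1.31-fold lower to 1.32-fold higher. The smallest difference that passed in any gene there was 0.13 on the log2 scale. These calls changed with single arrays, as did those over all genes. Fewer of the 84 and fewer of all genes passed limma without YEPD replicate 2, YEPD replicate 3 or YEPME replicate 3. Without YEPME replicate 2 neither count fell, though not all of the 6 were among those that passed. Each of these fits has 1 array in 1 medium.

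**Figure D1:**
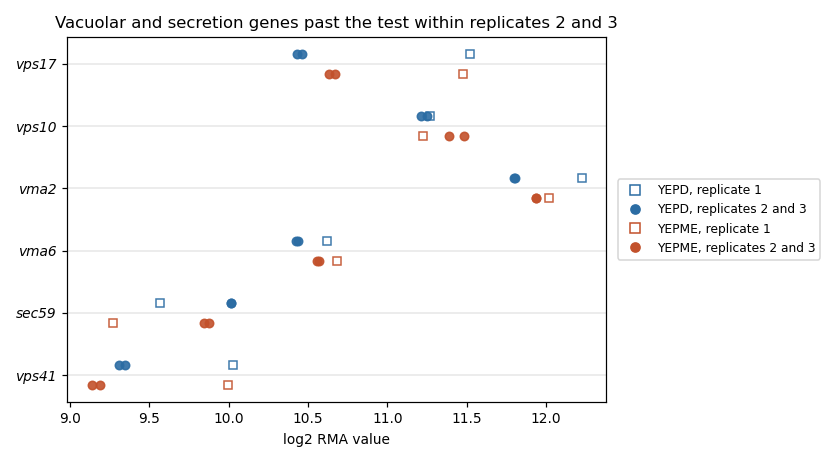
Log2 RMA values on the 6 arrays for the 6 genes past an adjusted p under 0.05 within replicates 2 and 3, with open squares for replicate 1 and filled circles for replicates 2 and 3. The filled circles of the media are apart for each gene, and for vps17, vps41 and sec59 the squares of replicate 1 lie far from the circles of both media.

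In replicate 1, a single pair, the picture was mostly of lower values in YEPME. There 61 of the 84 genes were lower, against 55.6% of all genes, with a median difference of -0.10 against -0.04. In replicates 2 and 3, 59 and 54 of the 84 were higher, against 51.5% and 50.4% of all genes, with medians of 0.05 and 0.05 against 0.00 and 0.00. The combination of lower in replicate 1 and higher in both other pairs was found in 31 of the 84 genes and in 21.4% of all genes. The opposite combination was found in 4, against 15.9%. The mean of the M cell markers had the first of these combinations too (-1.05, 0.19 and 0.24), and its part in the results was not tested. Higher in all 3 pairs were 13 of the 84, against 16.7% of all genes, and lower in all 3 were 11, against 20.2%. No gene of the 84 differed by 2-fold or more in any pair, whereas 3.04% of all genes did in replicate 1 and 0.449% in each of the other pairs. These counts depend on the scaling in replicate 1, where quantile normalization of the fission yeast probe sets left 52 of the 84 lower and 1500 of all 2896.

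**Figure D2:**
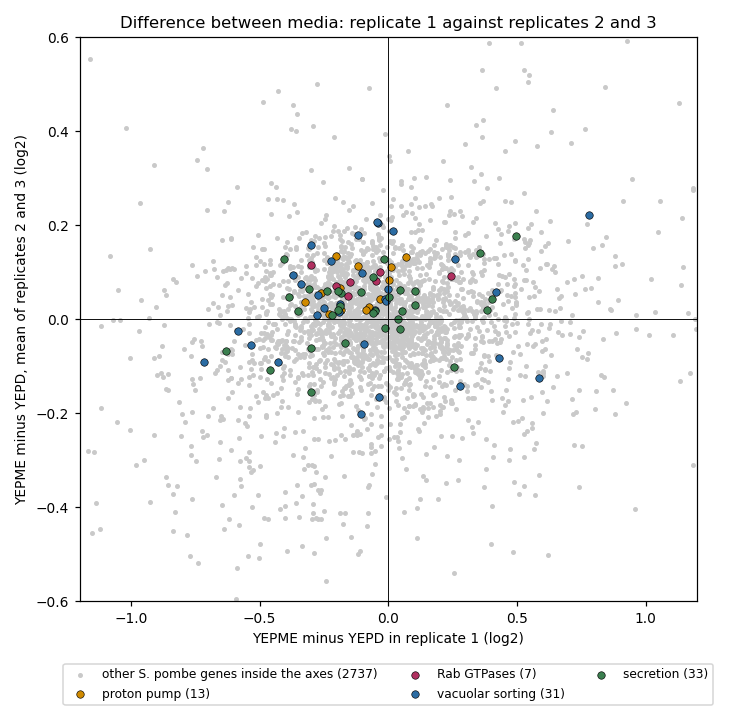
Difference between media in replicate 1 (horizontal, log2) against the mean of replicates 2 and 3 (vertical, log2) for the 84 genes by class and, in grey, the 2737 other genes that lie inside the axes (75 lie outside). The proton pump and Rab genes all lie above the horizontal line, 10 of 13 and 6 of 7 of them to the left of the vertical one.

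A limma interaction test asked whether the difference between media departed in replicate 1 from that in replicates 2 and 3. It assumes that the single replicate 1 array of each medium varies like the others. The difference departed for 43 of the 84 genes, or 51.2%, against 46.4% of all genes. For 35 it lay lower in replicate 1 (27.4% of all genes) and for 8 higher (19.0% of all genes). The 8 were sec6, sec20, sec66, vps5, vps20, vps24, vps36 and vps51, of which vps20, vps24 and vps36 belong to the ESCRT machinery.

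The differences between media were small for the V-ATPase genes. In V1, vma1 and vma2 encode the catalytic and the nucleotide-binding regulatory subunit, and vma4, vma5, vma7, vma8, vma10 and vma13 the stalks and the regulatory parts. In V0, vma3, vma11 and vma16 encode the proteolipid ring that turns, vma6 the subunit that couples it to the stalk, and vph1 the subunit that holds the proton channel. Averaged over replicates 2 and 3, all 13 genes were higher in YEPME, by 0.01 to 0.13, with a median of 0.06, where 66 of the 84 and 51.2% of all genes were higher. In replicate 1, 10 of the 13 were lower (55.6% of all genes), with a median of -0.12 and a range from -0.32 to 0.07. In the single pairs, 12 of the 13 were higher in replicate 2 and 11 in replicate 3. Quantile normalization kept 13 of 13 higher in the mean of replicates 2 and 3, with 12 and 11 in the single pairs. It left 9 of 13 lower in replicate 1.

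Of the 13, vma2 and vma6 passed the test within replicates 2 and 3, as did 15.6% of all genes. The B subunit gene vma2 (SPAC637.05C) read 12.22, 11.81 and 11.80 in YEPD and 12.02, 11.94 and 11.94 in YEPME in replicates 1, 2 and 3. It was thus higher in YEPME in replicates 2 and 3 and lower in replicate 1, with no overlap of media within replicates 2 and 3. It rose by 0.13 ± 0.03 there (SE, 2 arrays per medium, limma adjusted p = 0.0470). Here and below, the SE is limma's moderated one, which also draws on the spread of all other genes. The difference of vma2 departed in replicate 1 (-0.20, limma interaction adjusted p = 0.00850). The gene for the coupling subunit, vma6 (SPAC17A2.03C), read 10.62, 10.43 and 10.43 in YEPD and 10.69, 10.57 and 10.56 in YEPME. Each YEPME array was above its YEPD partner, though the YEPD array of replicate 1 exceeded both YEPME arrays of replicates 2 and 3. vma6 rose by 0.13 ± 0.03 over the pairs 2 and 3 (limma, adjusted p = 0.0493), differed by 0.07 in replicate 1, and had an interaction adjusted p of 0.353. Under quantile normalization the limma adjusted p was 0.0567 for vma2 and 0.0547 for vma6.

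In replicate 1 the sectors had different medians, with overlapping values. All 8 V1 genes were lower in YEPME there, with a median of -0.20, and 6 of them, vma2, vma4, vma5, vma7, vma10 and vma13, passed the interaction test. The 5 V0 genes had a median of 0.00, and 0 of the 5 passed it. Of all genes 55.6% were lower in replicate 1 and 46.4% passed that test. This contrast between the sectors was seen after the values and was not itself tested. The lowest differences were those of vma5 and vma10, for the C and G subunits. vma5 read 11.66, 11.45 and 11.38 in YEPD and 11.34, 11.45 and 11.45 in YEPME, so that YEPD replicate 1 stood highest and YEPME replicate 1 lowest of the 6. vma10 read 11.97, 11.60 and 11.57 in YEPD and 11.71, 11.69 and 11.59 in YEPME, with YEPD replicate 1 the highest of the 6 and YEPD replicate 2 slightly above YEPME replicate 3.

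Of the related ring genes vma3 and vma11, neither passed the test between media. vma3 (SPAC1B3.14) read 13.28, 12.97 and 12.93 in YEPD and 13.20, 12.97 and 12.98 in YEPME, the replicate 1 arrays being the highest in both media. vma11 (SPAC732.01) read 11.73, 11.81 and 11.83 in YEPD and 11.74, 11.92 and 11.95 in YEPME, the replicate 1 arrays being the lowest. Within replicates 2 and 3 the differences were 0.03 ± 0.03 (95% interval -0.06 to 0.11) and 0.11 ± 0.03 (0.03 to 0.20), with limma adjusted p of 0.611 and 0.0827. With trend and robust eBayes settings the adjusted p of vma11 was 0.0133. Between replicate 1 and the rest, vma3 and vma11 moved in opposite directions, by 0.28 ± 0.05 and -0.15 ± 0.05 (limma, adjusted p = 0.00489 and 0.0444). The other ring gene, vma16, moved the way of vma11, by -0.37 ± 0.07 (limma, adjusted p = 0.00739).

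**Figure D3:**
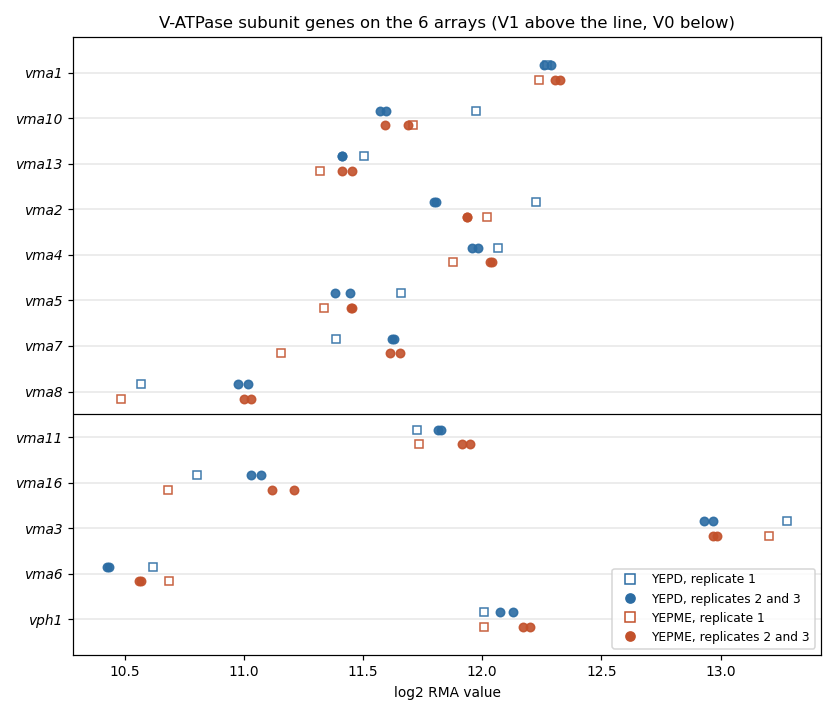
Log2 RMA values of the 13 V-ATPase subunit genes on the 6 arrays, YEPD in blue and YEPME in red, open squares for replicate 1 and filled circles for replicates 2 and 3. All 8 V1 genes have the red square to the left of the blue one; the position of one gene against another depends on its probes and is not a comparison of levels.

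The 7 Rab genes pointed the same way in replicates 2 and 3. Each was higher in YEPME in both pairs, by 0.06 to 0.14 in replicate 2 and by 0.02 to 0.11 in replicate 3, and the media did not overlap within these replicates for any of the 7, as was the case for 42 of the 84 and for 32.5% of all genes. Lower without overlap were 15 of the 84 and 30.6% of all genes. The limma test there passed 0 of the 7 Rab genes (15.6% of all genes), with 3 under 0.05 before adjustment (34.3% of all genes) and a lowest adjusted p of 0.0912, for ypt7. In replicate 1, 6 of the 7 were lower (55.6% of all genes), and 4 of 7 after quantile normalization. ypt1, for the Rab of transport from the endoplasmic reticulum to the Golgi, differed by -0.20, 0.12 and 0.02 in replicates 1, 2 and 3, ypt3, of the trans-Golgi and recycling route, by -0.05, 0.09 and 0.07, and ypt5, of early endosomes, by -0.16, 0.06 and 0.04.

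The largest replicate 1 differences among the Rab genes were those of ypt2 and ypt4. ypt2 (SPAC9E9.07C), whose product acts in the last step of exocytosis, read 10.95, 10.35 and 10.42 in YEPD and 10.65, 10.49 and 10.51 in YEPME. Its YEPD replicate 1 array was the highest of the 6 and the YEPD arrays of replicates 2 and 3 the lowest, and its difference departed in replicate 1 (-0.30 against 0.11; limma interaction adjusted p = 0.00794). ypt4 (SPAC1B3.11C), a relative of the endosomal Rab4 of animals, read 9.61, 9.43 and 9.48 in YEPD and 9.86, 9.56 and 9.54 in YEPME. It was higher in YEPME in all 3 pairs, and its fitted difference over all arrays of 0.14 ± 0.05 did not pass (limma, adjusted p = 0.286).

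The paralogous Rab7 proteins Ypt7 and Ypt71 act in opposite directions on fission yeast vacuoles, Ypt7 promoting their fusion and Ypt71 counteracting it. ypt7 (SPBC405.04C) read 11.63, 10.95 and 10.96 in YEPD and 11.60, 11.05 and 11.07 in YEPME. ypt71 (SPAPB1A10.10C) read 10.65, 10.59 and 10.54 in YEPD and 10.50, 10.65 and 10.64 in YEPME. Within replicates 2 and 3 both were higher in YEPME, by 0.10 ± 0.03 (95% interval 0.02 to 0.18) and 0.08 ± 0.03 (-0.01 to 0.17), and neither passed (limma, adjusted p = 0.0912 and 0.177). They parted in their level in replicate 1 of both media, where ypt7 was higher by 0.61 ± 0.05 (limma, adjusted p = 4.06e-04) and ypt71 differed by -0.04 ± 0.07 (adjusted p = 0.655).

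Among sorting genes, the retromer recycles cargo receptors from endosomes to the Golgi with a trimer of vps26, vps29 and vps35 products and the sorting nexins encoded by vps5 and vps17. vps17 (SPAPJ696.01C) read 11.52, 10.46 and 10.43 in YEPD and 11.48, 10.67 and 10.63 in YEPME. Its YEPME arrays were above the YEPD ones in replicates 2 and 3, while both replicate 1 arrays stood far higher and close to each other. In those pairs it rose by 0.21 ± 0.03, with the lowest limma adjusted p of the 84 genes (0.0223), and differed by -0.04 in replicate 1 (interaction adjusted p = 0.0256). Its partner vps5 read 10.09, 9.36 and 9.39 in YEPD and 10.51, 9.36 and 9.51 in YEPME, with the YEPME array of replicate 1 highest and no separation of the media in replicates 2 and 3. It differed by 0.42, 0.00 and 0.12 in the 3 pairs.

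The trimer genes did not pass within replicates 2 and 3. vps26 differed by -0.37, 0.11 and 0.08 in replicates 1, 2 and 3, vps29 by -0.53, -0.08 and -0.03, and vps35 by -0.25, 0.01 and 0.04. All 3 were lower in YEPME in replicate 1, where vps5 was higher, and all 5 retromer genes passed the limma interaction test (adjusted p of 0.00451 to 0.0389), as did 46.4% of all genes. The cargo receptor gene vps10 (SPBC16C6.06), for the protein that carries hydrolases such as carboxypeptidase Y to the vacuole, read 11.27, 11.21 and 11.25 in YEPD and 11.23, 11.39 and 11.48 in YEPME. The YEPME arrays of replicates 2 and 3 were the highest of the 6, and those of replicate 1 lay with the YEPD values. vps10 rose by 0.20 ± 0.04 in those pairs (limma, adjusted p = 0.0435) and differed by -0.04 in replicate 1 (interaction adjusted p = 0.0522).

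The ESCRT complexes sort ubiquitinated membrane proteins into vesicles inside the endosome. The 7 measured genes with a vps name were vps28 of ESCRT-I, vps25 and vps36 of ESCRT-II, vps20, vps24 and vps32 of ESCRT-III, and vps4. The last encodes the ATPase that takes the filaments apart. All 7 passed the interaction test (46.4% of all genes), and 6 of 16 measured ESCRT and endosome genes under other names did. Within replicates 2 and 3, 0 of the 7 passed (15.6% of all genes), where the lowest limma adjusted p was 0.0560, for vps28. When the replicate number was blocked on, 3 of the 7 passed limma there. They were vps24 and vps28, higher (adjusted p = 0.00745 and 0.0218), and vps20, lower (adjusted p = 0.0460). Of all genes 11.3% were higher and 12.7% lower in that fit. vps24 (SPAC9E9.14) read 9.55, 10.54 and 10.44 in YEPD and 10.33, 10.79 and 10.63 in YEPME. It was higher in YEPME in each pair, by 0.78, 0.25 and 0.19, and YEPD replicate 1 was the lowest of the 6 by a wide margin. Its replicate 1 difference was the highest of the 84 genes, yet the fitted difference over all arrays, 0.41 ± 0.13, did not pass (limma, adjusted p = 0.236), while within replicates 2 and 3 the adjusted p was 0.0922 without the block.

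The ESCRT genes did not all point the same way. In replicate 1, vps20, vps24 and vps36 were higher in YEPME (0.28, 0.78 and 0.43) and vps25, vps28, vps32 and vps4 lower (-0.43, -0.12, -0.10 and -0.22). In replicates 2 and 3, vps24, vps28, vps32 and vps4 were higher, vps28 by 0.23 and 0.13, and vps20, vps25 and vps36 were lower, vps20 by -0.10 and -0.18. vps24 alone of the 7 was higher in all 3 pairs, and vps25 alone lower in all 3 (-0.43, -0.01 and -0.17).

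HOPS and CORVET tether membranes to the vacuole and the endosome. The HOPS gene vps41 (SPAP27G11.05C), whose budding yeast namesake binds the Rab7 protein, read 10.03, 9.35 and 9.31 in YEPD and 9.99, 9.19 and 9.14 in YEPME. The YEPME arrays were lowest in replicates 2 and 3, below both YEPD arrays, and the replicate 1 arrays of both media were the highest. vps41 fell by 0.17 ± 0.04 within replicates 2 and 3 (limma, adjusted p = 0.0464), with -0.03 in replicate 1, and its adjusted p was 0.0615 with arrays centred on their median and 0.0559 with quantile normalization. The CORVET genes vps3 and vps8 differed by 0.02, 0.26 and 0.11 and by -0.28, 0.08 and -0.06 in the 3 pairs. For vps3 the adjusted p within replicates 2 and 3 was 0.0586, and 0.0297 when the replicate number was blocked on (limma). The shared core genes vps11, vps16 and vps33 differed by -0.09, -0.04 and -0.06, by -0.59, 0.02 and -0.07 and by -0.19, 0.06 and 0.00.

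GARP tethers vesicles returning from endosomes to the Golgi. vps52 (SPBC336.11) read 10.63, 10.62 and 10.63 in YEPD and 9.91, 10.50 and 10.57 in YEPME. YEPME was the lower medium in each pair and its 3 arrays lay below the 3 YEPD arrays, narrowly in replicates 2 and 3 and widely in replicate 1. Its replicate 1 difference, -0.71, was the lowest of the 84 genes (interaction adjusted p = 0.00324), and the fitted difference over all arrays was -0.30 ± 0.14 (limma, adjusted p = 0.370). vps51, of the same complex, went the other way in replicate 1, with differences of 0.59, -0.11 and -0.14 (interaction adjusted p = 0.00225). vps53 and vps54 differed by -0.01, 0.00 and 0.08 and 0.00, -0.03 and 0.15.

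Of the 84 genes, 4 kept the media apart over all 6 arrays. They were sec6, higher in YEPME (2.76% of all genes), and vps52, vps29 and sec9, lower (2.94% of all genes). The remaining sorting genes did not pass within replicates 2 and 3: vps1, for a dynamin-like GTPase, differed by -0.34, 0.08 and 0.08 in the 3 pairs, vps45, for a regulator of SNARE pairing, by -0.01, -0.01 and 0.09, and vps1302, of a lipid transfer family, by -0.05, 0.06 and -0.02. The genes vps901 and vps902 encode proteins with the domain that activates Rab5. vps901 was higher in each pair, by 0.26, 0.14 and 0.12, and vps902 differed by -0.19, 0.04 and 0.00. vps55, vps66 and vps71 differed by -0.27, -0.07 and 0.17, by -0.30, 0.12 and 0.20 and by -0.11, -0.06 and -0.34. For vps66 the limma adjusted p within replicates 2 and 3 was 0.0836, and 0.0335 when the replicate number was blocked on.

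**Figure D4:**
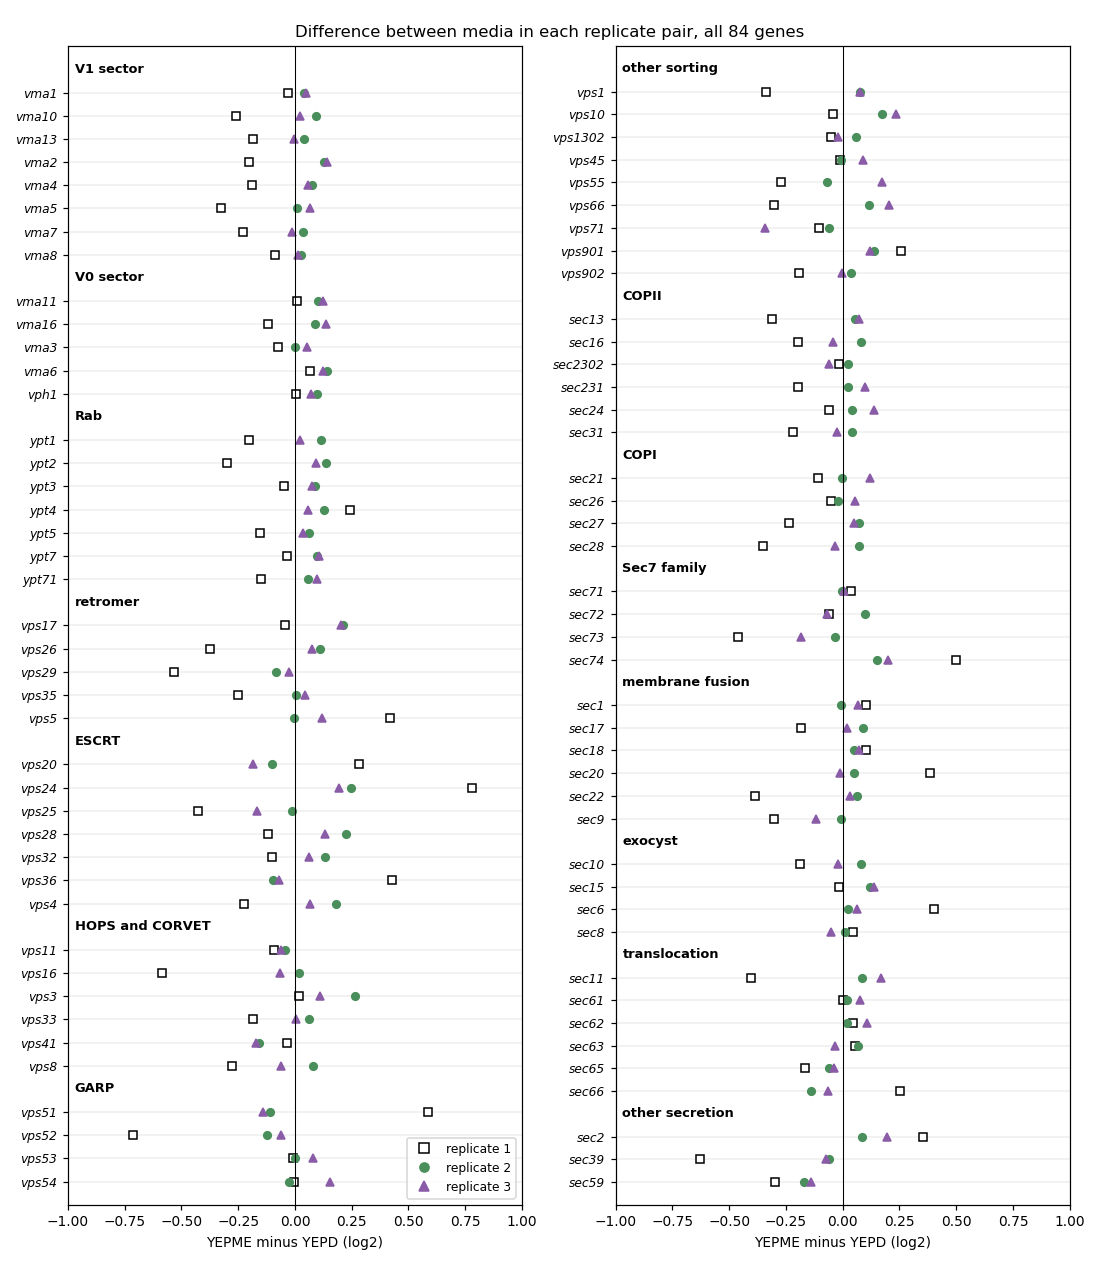
Difference between media (YEPME minus YEPD, log2) of all 84 genes in replicate 1 (open squares), replicate 2 (green circles) and replicate 3 (purple triangles), grouped by complex. Replicates 2 and 3 stay between -0.34 and 0.26, and the squares spread from -0.71 to 0.78.

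Of the 33 secretion genes, 0 rose and 1 fell within replicates 2 and 3, where 6.91% of all genes rose and 8.70% fell. That gene, sec59 (SPCC63.10C), encodes dolichol kinase, which makes the lipid carrier for protein glycosylation. It read 9.57, 10.01 and 10.02 in YEPD and 9.27, 9.84 and 9.88 in YEPME, lower in YEPME in each pair, with both replicate 1 arrays below the others. sec59 fell by 0.15 ± 0.03 within replicates 2 and 3 (limma, adjusted p = 0.0393) and differed by -0.30 in replicate 1. Its fit over all arrays gave -0.20 ± 0.05 with the lowest adjusted p of the 84 genes (0.164).

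The coats changed little. For COPII, which buds vesicles from the endoplasmic reticulum, all 6 genes were lower in YEPME in replicate 1, from -0.31 for sec13, of the outer cage, to -0.01 for sec2302, a form of the inner coat. In replicate 2 all 6 were higher, by 0.02 to 0.08, and in replicate 3 the range was -0.06 to 0.14, the upper end being sec24, which binds cargo. The COPII paralogues sec231 and sec2302 differed by -0.20, 0.02 and 0.10 and by -0.01, 0.02 and -0.06 in the 3 pairs. The 4 measured COPI genes, sec21, sec26, sec27 and sec28, whose coat returns vesicles to the endoplasmic reticulum, were also all lower in replicate 1, from -0.35 to -0.05, and between -0.04 and 0.12 in replicates 2 and 3.

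In fission yeast sec71, sec72, sec73 and sec74 stand for the Sec7 family of Arf activators, unlike the budding yeast genes named SEC71 and SEC72, which belong to the translocon. sec74 (SPAC26F1.01) read 9.97, 9.68 and 9.76 in YEPD and 10.47, 9.83 and 9.96 in YEPME. It was higher in YEPME in each pair, by 0.50, 0.15 and 0.20, with both replicate 1 arrays above the others of their medium. It did not pass over all arrays (0.28 ± 0.09; limma, adjusted p = 0.226) or within replicates 2 and 3 (adjusted p = 0.109, and 0.0181 when the replicate number was blocked on). sec73 was lower in each pair, by -0.46, -0.03 and -0.18, and sec71 and sec72 differed by 0.04, 0.00 and 0.01 and by -0.06, 0.10 and -0.07.

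Exocyst subunits, which tether secretory vesicles at growing cell tips, included sec6, with YEPME above YEPD in each pair (0.40, 0.02 and 0.06), and sec15, sec10 and sec8, with -0.02, 0.12 and 0.14, -0.19, 0.08 and -0.02 and 0.05, 0.01 and -0.05. Genes for membrane fusion also differed little outside replicate 1. The disassembly ATPase gene sec18 differed by 0.10, 0.05 and 0.07 and its adaptor sec17 by -0.19, 0.09 and 0.02. Among the SNARE genes, sec22 differed by -0.39, 0.06 and 0.03, sec20 by 0.38, 0.05 and -0.01 and sec9 by -0.30, -0.01 and -0.12, and sec1, whose product binds plasma membrane SNAREs, by 0.10, -0.01 and 0.07. sec2, whose budding yeast namesake activates the Rab of exocytosis, was higher in each pair by 0.36, 0.09 and 0.20 (limma over all arrays, adjusted p = 0.228).

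At the endoplasmic reticulum, sec61, for the pore through which proteins enter, differed by 0.00, 0.02 and 0.08, and its partners sec62, sec63 and sec66 by 0.04, 0.02 and 0.11, 0.05, 0.07 and -0.03 and 0.25, -0.14 and -0.06. sec65, of the signal recognition particle, differed by -0.17, -0.06 and -0.04, and sec11, for the signal peptidase, by -0.41, 0.09 and 0.17. sec39 (SPAC7D4.11C), whose budding yeast namesake serves in vesicle tethering at the endoplasmic reticulum, read 8.52, 8.95 and 8.95 in YEPD and 7.89, 8.89 and 8.87 in YEPME. It was lower in YEPME in each pair, and the YEPME array of replicate 1 was the lowest of the 6. Its difference departed in replicate 1 (-0.63 against -0.07; limma interaction adjusted p = 0.00256).

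The level of the genes differed more between replicate 1 and the rest than between media. The limma term for replicate 1 passed for 55 of the 84 genes, or 65.5%, against 71.0% of all genes. Of these, 37 were higher in replicate 1 (35.0% of all genes) and 18 lower (36.0% of all genes). The median absolute difference was 0.30 against 0.41 for all genes, and 0 of the 84 reached 2-fold, against 15.4% of all genes. The highest, named after their values were seen, were sec61 by 0.98 ± 0.05, vps17 by 0.95 ± 0.07, vps5 by 0.90 ± 0.10, sec1 by 0.87 ± 0.05 and sec31 by 0.80 ± 0.08 (limma, adjusted p of 8.88e-05 to 9.58e-04). For sec61 the 6 arrays were 11.76, 10.76 and 10.75 in YEPD and 11.76, 10.78 and 10.83 in YEPME, without overlap between replicate 1 and the rest. The lowest were sec39 with -0.71 ± 0.13, vps24 with -0.66 ± 0.14 and sec73 with -0.62 ± 0.09. The retromer had 3 of 5 genes past this test, all higher, and the COPI genes 3 of 4, all higher, whereas the exocyst had 2 of 4, both lower.

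**Figure D5:**
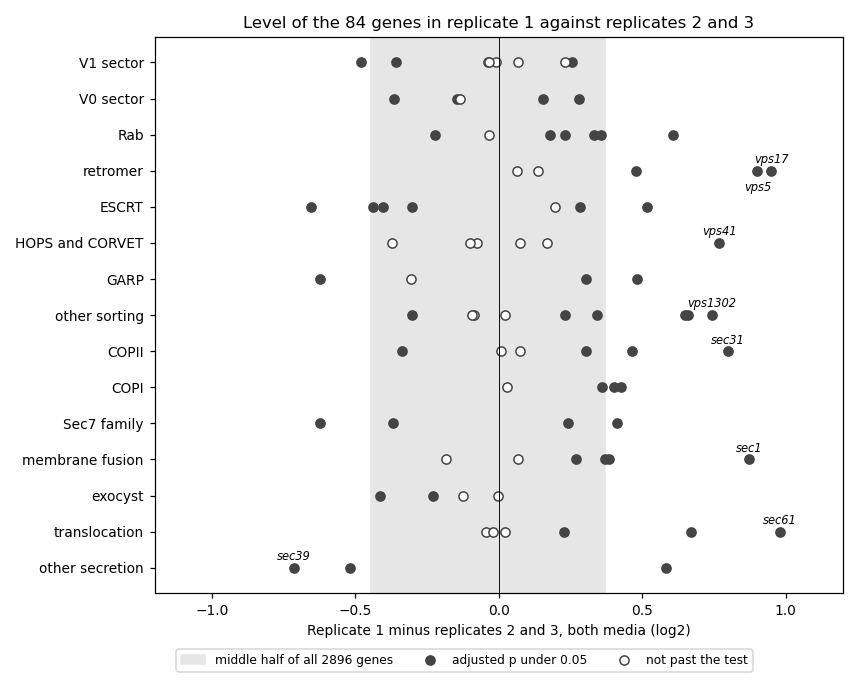
Level in replicate 1 minus level in replicates 2 and 3, over both media (log2), for the 84 genes by complex, filled where the limma adjusted p was under 0.05, with the middle of the distribution of all 2896 genes (-0.45 to 0.37) shaded. The retromer genes vps17 and vps5 and the translocon gene sec61 lie furthest to the right, and sec39 furthest to the left.

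Genes of the same routes under other names were also mostly not past the test. Of 139 listed symbols for coat, adaptor, SNARE, Rab regulator, tether, endosome, proton transport and translocon genes, 102 matched a measured gene (gcs1 was taken off the list, since in fission yeast it encodes glutamate-cysteine ligase). With the term for replicate 1, 0 passed limma (2.07% of all genes) and 9 had an unadjusted p under 0.05 (16.5% of all genes). Within replicates 2 and 3, 5 rose and 3 fell, against 6.91% and 8.70% of all genes. The rises were sst2, for an endosomal deubiquitinating enzyme, by 0.36 ± 0.04, vcx1, a vacuolar calcium and proton exchanger, by 0.21 ± 0.04, sft2 by 0.18 ± 0.03, the SNARE gene fsv1 by 0.17 ± 0.03 and apl3, of the endocytic AP-2 adaptor, by 0.16 ± 0.04 (limma, adjusted p of 0.00886 to 0.0495). The falls were arf6, for a small GTPase of the plasma membrane, by 0.25 ± 0.03, psy1, for the plasma membrane syntaxin, by 0.20 ± 0.04 and bet5, of the TRAPP tether, by 0.18 ± 0.04 (adjusted p of 0.0135 to 0.0468). Their differences in replicate 1 were 0.08 for sst2, 0.00 for vcx1, -0.04 for sft2, -0.04 for fsv1, 0.23 for apl3, -0.12 for arf6, 0.72 for psy1 and -0.13 for bet5. psy1 read 10.03, 10.72 and 10.78 in YEPD and 10.75, 10.51 and 10.59 in YEPME, with its lowest value in YEPD replicate 1 and the media apart in the other direction in replicates 2 and 3.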

How the data were processed

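Per the submitters' processing notes, RMA and Partek were used for the deposited log2 values, 1 per probe set. Of 10924 probe sets, 2914 had 1 S. pombe gene in the platform annotation (3 matched to RefSeq by symbol only), giving 2896 genes. The highest-mean probe set stood for each of the 14 genes with several. The p-values came from limma 3.58.1 (R 4.3.3; lmFit, eBayes, two-sided, Benjamini-Hochberg over all 2896 genes), with a term for replicate 1, within replicates 2 and 3, and with an interaction term. Replicates are labelled biological, and the number of arrays limits the precision. The code was tested on simulated data.

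Same-numbered arrays deviated together from their group means (correlations of 0.853, 0.835 and 0.836), and the replicate number was taken as pairing them. Arrays of replicates 2 and 3 with unlike numbers correlated nearly as highly (0.816 in both crossings). These correlations therefore cannot establish the pairing within replicates 2 and 3, on which the results with the replicate block there rest. The genes, lists and fits were chosen with earlier results of these data known. Full values are given by a fixed rule: genes past the test between media, at most 4 per class and direction, and the 2 largest replicate 1 differences of each class. The rule also takes in ypt7, ypt71, vma3 and vma11. Values of vps5, sec61, psy1 and the S. cerevisiae probe set VPS68 were printed outside this rule. Differences were read in other genes where a complex is described. Alternatives covered blocks, scaling, dim genes, probe set means, eBayes settings, threshold and each array.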

Additional observations from a re-analysis of the deposited data

Results flagged for a closer look

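The difference between media departed in replicate 1 from that in replicates 2 and 3, by limma's interaction test, for 43 of the 84 genes (51.2%) and for 46.4% of all genes. Among the genes given in full by the fixed rule it did so for 9, as replicate 1 minus the mean of replicates 2 and 3 on the log2 scale. It was -0.62 for vps52, -0.56 for sec39, -0.42 for ypt2, -0.36 for vma5, -0.34 for vma2, -0.32 for vma10, -0.25 for vps17 and -0.23 for ypt71. For vps24 alone of the 9 it was positive, 0.56. It also departed for vps5, printed in full with the retromer, and was positive there, 0.36. The fixed rule takes in the 2 largest replicate 1 differences of each class, and vps52, sec39, ypt2, vma5, vma10 and vps24 entered through them. The count of 9 is thus partly fixed by that choice and is no result about these genes. Replicate 1 has 1 array per medium, so its own spread was not measured.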

How the results depend on the processing

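With a term for replicate 1 in the fit, the 60 calls over all genes went to 0 with no block (32 at an unadjusted p under 0.05), to 0 with the replicate number as a block (replicate block; 317), and to 0 at an adjusted p under 0.01 (478). Leaving out 1 array gave 0 to 452 calls over all genes and 0 to 6 among the 84. The highest counts were without YEPD replicate 1 or YEPME replicate 1, which leaves that fit to replicates 2 and 3. Within replicates 2 and 3, the 452 calls became 753 with trend and robust eBayes, 695 with the replicate block and 142 at an adjusted p under 0.01. Among the 84 genes, the 6 calls became 18, 12 and 0. Leaving out 1 array there gave 19 to 483 calls over all genes and 0 to 6 among the 84. Without YEPD replicate 2 the counts were 19 and 0, without YEPD replicate 3 they were 20 and 0, and without YEPME replicate 3 they were 348 and 1. At an adjusted p under 0.01 the interaction test passed 591 genes, and 14 of the 84. The 6 genes kept their direction under all 11 alternatives, and all 6 passed with the dim filter, probe set means, trend and robust settings and the replicate block, 5 with centred arrays and 3 with quantile normalization. The other counts stayed within 1.5 times their value. The cause of these changes was not tested. The small number of arrays limits all of them.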

Other observations

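The array also carries 78 S. cerevisiae probe sets whose symbols follow the same naming rule. Of these, 1 (1.28%) read above the 95th percentile of all S. cerevisiae probe sets on all 6 arrays, against 62 of all 2600 (2.38%). It was VPS68, with 6.40, 5.34 and 5.18 in YEPD and 6.34, 5.30 and 5.42 in YEPME in replicates 1, 2 and 3.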
